A study of Mus musculus with 15 samples.

Results

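The lysosomal sphingolipid hydrolases and their activator protein were described in RNA from sorted mouse microglia, the resident macrophages of the brain. The 8 genes were taken by symbol, as enzymes or activator of lysosomal sphingolipid breakdown: Hexa, Galc, Glb1, Gla, Asah1, Arsa, Smpd1 and Psap. All 8 were listed among the 13834 genes of the table, and all 8 passed the filter on low values. The study's title concerns a microglial phenotype of old age that can be reversed. Its 15 libraries form 4 groups. The PLX5622 group (n = 4) came from 18-month-old mice that received PLX5622, a compound that blocks CSF1R and depletes microglia; whether the sorted cells had survived or regrown is not given. Microglia of untreated 18-month-old mice were sorted into a group of high autofluorescence (AF-high, n = 5) and a group of low autofluorescence (AF-low, n = 3). The young group (n = 3) came from untreated 3-month-old mice. No genotype, strain, sex, dose or schedule is given in the sources used here, nor the autofluorescence gate of the PLX5622 and young cells, so gate and treatment or age cannot be told apart in comparisons across those groups. The titles call the libraries biological replicates. Whether a library came from 1 mouse or from a pool is not given.

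Sphingolipids are membrane lipids built on ceramide, and a microglial cell takes them up with myelin, synapses and dead cells. In the lysosome, exo-acting hydrolases remove the sugars and the sulfate in sequence until ceramide is left, which acid ceramidase splits into sphingosine and a fatty acid. Small activator proteins lift the lipids out of the membrane for the enzymes. Loss of any of these steps leads to a lysosomal storage disease in humans, and undegraded lipid and protein in lysosomes is commonly held to give old microglia their autofluorescence.

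Values are TPM, transcript abundance scaled per length and to a like total in each library. Differences are of log2(TPM + 1), the first-named group minus the second, ± SE from limma over 13175 genes, and calls were made at an adjusted p (Benjamini-Hochberg) under 0.05. The fit shares 1 spread per gene over the 4 groups. The SEs, intervals and p-values of PLX5622 against young thus also carry the scatter of the AF libraries, which is larger for most genes. Library totals lay between 956489 and 963145 TPM. A TPM table keeps no read depth, so no counting error can be set beside a low value. The libraries held all 12 microglial markers examined, with summed levels of 6957 to 7524 TPM in PLX5622 libraries, 6960 to 9748 TPM for AF-high, 5742 to 7882 TPM for AF-low and 8079 to 9395 TPM for young. Markers of the choroid plexus and ependyma were high in young 1 and 2, at 8745 and 5764 summed TPM over the 4 of 8 that were listed, against 209.5 in young 3 and 31.6 to 368 in the 12 others. Because the samples are bulk RNA, fewer cells of a type and less RNA per cell cannot be told apart.

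The 8 genes kept nearly the same order of level in every group. Psap was the highest, with a mean of 294 ± 62.1 TPM (SD, n = 15 libraries), above 96.1% of the genes in the table. Asah1 averaged 183 ± 22.6 and Hexa 156 ± 22.4 TPM. Gla followed at 40.5 ± 13.1 TPM and held rank 4 in every library. Glb1 at 16.7 ± 4.71, Smpd1 at 13.6 ± 1.73 and Galc at 13.5 ± 2.35 TPM lay within each other's spread. Arsa was the lowest at 5.80 ± 4.49 TPM. Psap ranked first in 14 of 15 libraries, with Asah1 above it in PLX5622 3. Asah1 exceeded Hexa in 13 of 15 libraries, whereas Glb1 exceeded Smpd1 in 10 and Galc exceeded Smpd1 in 9, so the order among these 3 genes was not fixed. The 8 genes summed to 612 to 739.6 TPM per PLX5622 library, 693 to 848 per AF-high, 641 to 764 per AF-low and 691 to 781 per young library.

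**Figure D1:**
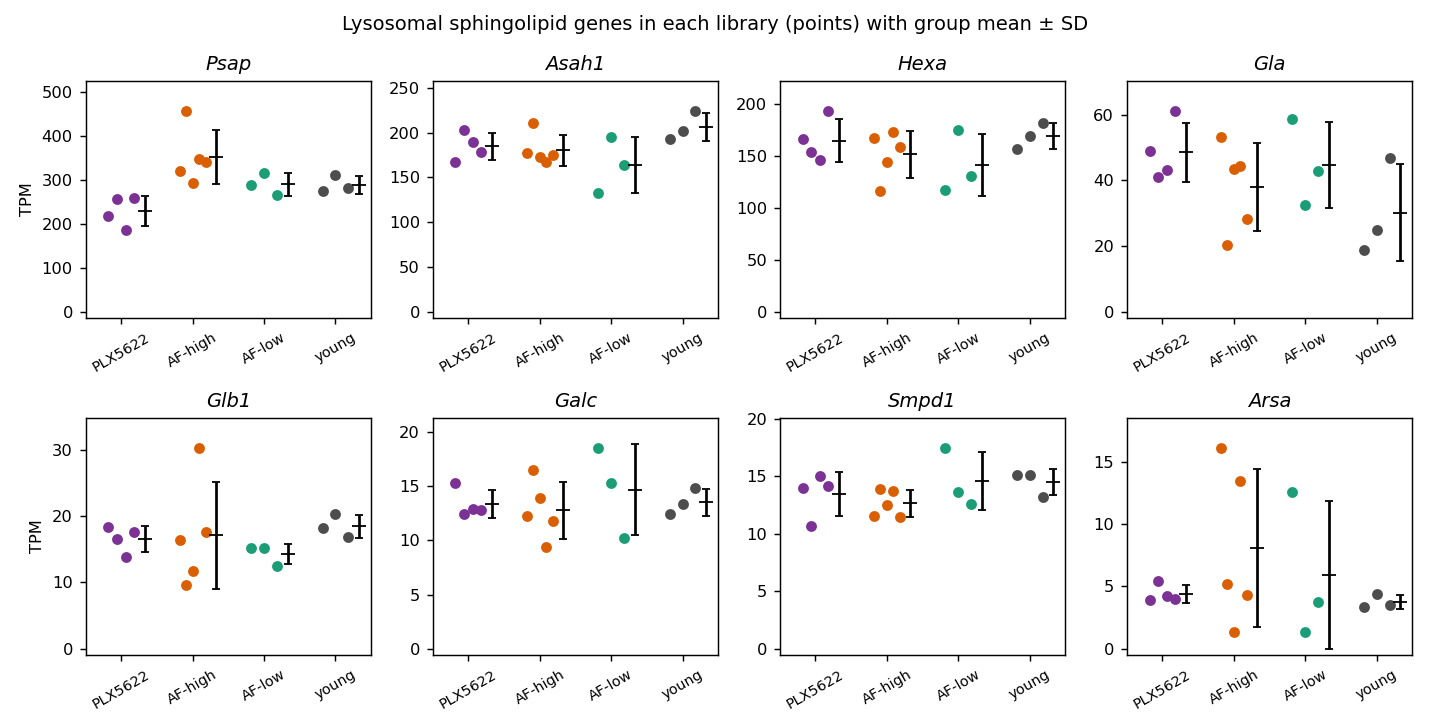
TPM of the 8 genes, each panel with its own linear axis from about 0. Points are libraries of the PLX5622 (n = 4), AF-high (n = 5), AF-low (n = 3) and young (n = 3) groups, and black bars are the mean ± SD. Only for Psap do the PLX5622 points lie below those of all other groups, the 4 ending at 258 TPM, and Arsa spreads from 1.32 to 16.1 TPM in AF-high.

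Gene positions below are on GRCm38, from the GENCODE M21 annotation, and span the gene body. Psap (chromosome 10, 60277627 to 60302597, plus strand) encodes prosaposin, which lysosomal proteases cut into saposins A, B, C and D. Saposin A serves galactosylceramidase, B serves arylsulfatase A and alpha-galactosidase A, and D serves acid ceramidase. Its transcript was at 217, 256, 187 and 258 TPM in the PLX5622 libraries. The AF-high libraries had 320.3, 456, 294, 347 and 339.6 TPM, the AF-low libraries 288, 316 and 265 TPM, and the young libraries 273, 311 and 281 TPM. On the deposited TPM scale, every PLX5622 library was thus below every other library. AF-high 2 was the highest of the 15 and lay well above the other AF-high libraries. Of these, only AF-high 3, at 294 TPM, lay within the range of the young and AF-low libraries.

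The group mean of Psap was 229 ± 34.1 TPM in PLX5622 (n = 4) and 351 ± 61.9 in AF-high (n = 5), a log2 difference of -0.61 ± 0.14 (95% interval -0.90 to -0.32, limma adjusted p = 0.0549). This was the 111th smallest p of 13175 and just missed the threshold, so Psap is not called. None of the 8 genes was called in this comparison (0 of 8), where 0.63% of all genes were. Psap was the only one of the 8 whose libraries did not overlap between these groups, as held for 6.55% of all genes. Under 25 alternatives the difference ranged from -0.67 to -0.50 and the adjusted p from 0.0263 to 0.228, and Psap passed under 4 of them: a filter at 5 TPM (0.0474), array weights (0.0263), leaving out AF-high 3 (0.0422), and removing AF-high 2 and 3 and AF-low 1 together (0.0471). AF-high 3, absent from both of the last-named settings, had the lowest Psap of its group. Leaving out AF-high 2 gave -0.51 with an adjusted p of 0.0801. Leaving out 1 PLX5622 library gave an adjusted p between 0.0808 (without PLX5622 4) and 0.228 (without PLX5622 3).

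Against AF-low, where Psap averaged 289 ± 25.7 TPM, the PLX5622 difference was -0.34 ± 0.16 (interval -0.67 to -0.010, adjusted p = 0.333). Against young, with 288 ± 19.9 TPM, it was also -0.34 ± 0.16 (interval -0.67 to -0.0066, adjusted p = 0.942). Both comparisons called 0 of the 8 genes, beside 0.144% and 0.0911% of all genes, and in each Psap alone of the 8 had no overlap, beside 16.2% and 16% of all genes. The 3 comparisons share the PLX5622 libraries and are not independent. AF-high and AF-low differed by 0.27 ± 0.15 (interval -0.052 to 0.58, adjusted p = 0.666) and AF-high and young by 0.27 ± 0.15 (interval -0.049 to 0.59, adjusted p = 0.537). AF-low and young differed by 0.0037 ± 0.17 (interval -0.35 to 0.36).

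Psap also took a smaller part of the summed TPM of the 8 genes in PLX5622 libraries, 30.5% to 36.6%, than in AF-high (41.4% to 53.7%) and AF-low libraries (41.3% to 43.6%), while young libraries, with 35.9% to 40.9%, overlapped with PLX5622. A ratio of this kind does not depend on how a library was scaled. Numbered gene models took 20.3% ± 3.05 of TPM in PLX5622 libraries and 11.6% ± 1.36 in AF-high libraries. With these, mitochondrial and ribosomal protein genes taken out and the rest rescaled, the PLX5622 and AF-high difference of Psap was -0.50 ± 0.12 (adjusted p = 0.0822). Together the 3 classes held 24.3% to 30.2% of TPM per PLX5622 library, but only 17.4% to 19.4% per AF-low library. The young range was 17.1% to 26.9%. At these shares, rescaling would put Psap of PLX5622 4 above that of AF-low 3. The lack of overlap with AF-low in TPM thus depends on the deposited scale. Rescaled differences from AF-low and young are not given here.

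The summed level of markers of border-associated macrophages, another macrophage type that a brain sort can hold, was also at its lowest in PLX5622 libraries. All 10 markers were listed, and their summed level was 149 to 179 TPM for PLX5622, 264 to 352 TPM for AF-high, 319 to 378 TPM for AF-low and 191 to 250.2 TPM for young. Mrc1, their mannose receptor gene, fell to 8.75 ± 2.33 TPM in PLX5622 libraries, against 23.3 ± 1.61 in AF-high (log2 difference -1.34 ± 0.16, adjusted p = 0.00603) and 32.2 ± 3.6 in AF-low (-1.79 ± 0.19, adjusted p = 0.00071). Cd163, a scavenger receptor, fell to 1.26 ± 0.826 TPM in PLX5622, against 6.55 ± 0.567 in AF-low (-1.80 ± 0.27, adjusted p = 0.02). F13a1, a transglutaminase, fell to 4.54 ± 0.826 TPM, against 13.6 ± 4.72 in AF-low (-1.35 ± 0.25, adjusted p = 0.047). Of the 10 markers, 9 were lower in PLX5622 than in AF-high, 10 were lower than in AF-low and 9 were lower than in young by their fitted differences, most without passing. The exceptions were Folr2, at 2.23 ± 1.21 TPM in PLX5622 and 1.58 ± 2.05 in AF-high, and Clec12a, at 9.26 ± 0.967 TPM in PLX5622 and 8.40 ± 2.23 in young. In AF-high 2, both Psap (456 TPM) and the marker sum (352 TPM) were the highest of the group. AF-high 4 and 5 had marker sums of 267 and 264 TPM with Psap at 347 and 339.6 TPM. AF-low libraries, with the sums given above, had Psap at 265 to 316 TPM, against 273 to 311 TPM in young libraries. The part of these cells in the Psap values was not tested.

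**Figure D2:**
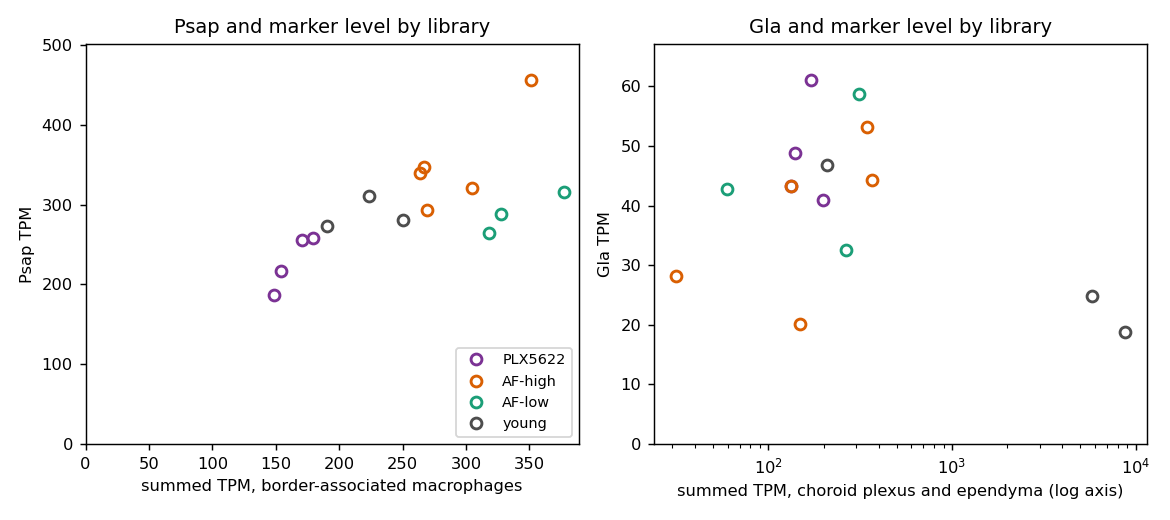
Left, TPM of Psap against the summed TPM of 10 border-associated macrophage markers. Right, TPM of Gla against the summed TPM of the 4 listed choroid plexus and ependyma markers (log axis). Each circle is 1 library. PLX5622 circles lie at the lower left of the first panel, and young 1 and 2 stand at the far right of the second, with Gla at 18.7 and 24.9 TPM.

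Hexa and Glb1 act on gangliosides, the sialic acid glycolipids of neuronal membranes. Hexa (chromosome 9, 59539540 to 59565109, plus strand) encodes the alpha subunit of beta-hexosaminidase A, the enzyme missing in Tay-Sachs disease. It was at 166, 153, 146 and 193 TPM in PLX5622, 167, 116, 144, 173 and 158 in AF-high, 117, 175 and 131 in AF-low, and 156, 169 and 181 in young libraries. The groups overlapped in all 6 comparisons, and the log2 differences lay between -0.28 ± 0.18 (AF-low minus young, interval -0.66 to 0.099, adjusted p = 0.554) and 0.24 ± 0.17 (PLX5622 minus AF-low, interval -0.12 to 0.59, adjusted p = 0.543).

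Gm2a, whose product presents the ganglioside to beta-hexosaminidase A, was at 39.3 ± 4.46, 42.5 ± 5.78, 32.5 ± 10.5 and 32.9 ± 0.0598 TPM in PLX5622, AF-high, AF-low and young libraries and did not pass in any comparison (smallest adjusted p = 0.49).

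Glb1 (chromosome 9, 114401076 to 114474898, plus strand) encodes lysosomal beta-galactosidase, whose activity is the stain commonly used for senescent cells and whose loss causes a ganglioside storage disease. Its transcript was at 18.3, 16.5, 13.9 and 17.6 TPM in PLX5622, 16.4, 9.56, 11.7, 30.3 and 17.6 in AF-high, 15.2, 15.1 and 12.5 in AF-low, and 18.3, 20.3 and 16.8 in young libraries. AF-high held both the highest and the lowest library of the 15. AF-low libraries lay below the young ones with no overlap, as held for 19.3% of all genes, and the difference did not pass (-0.35 ± 0.30, interval -0.99 to 0.29, adjusted p = 0.682). Against young, AF-high differed by -0.20 ± 0.27 (interval -0.78 to 0.37, adjusted p = 0.825) and PLX5622 by -0.15 ± 0.28 (interval -0.75 to 0.45, adjusted p = 0.98). A higher Glb1 transcript in old than in young microglia was therefore not detected.

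In the lysosome, beta-galactosidase is held in a complex by protective protein, encoded by Ctsa, together with the sialidase Neu1. Ctsa was at 353 ± 50.5 TPM in PLX5622 and 545 ± 125 in AF-high (-0.60 ± 0.18, adjusted p = 0.124), with 424 ± 72.6 in AF-low and 428 ± 87.0 in young libraries. Neu1 was at 13.6 ± 1.84, 12 ± 3.58, 14 ± 1.42 and 12.8 ± 1.87 TPM in PLX5622, AF-high, AF-low and young libraries.

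Gla (chromosome X, 134588149 to 134601125, minus strand) encodes alpha-galactosidase A, which removes the terminal galactose of globotriaosylceramide and is deficient in Fabry disease. Its levels were 48.9, 40.9, 43.2 and 61 TPM in PLX5622, 53.2, 20.2, 43.3, 44.3 and 28.3 in AF-high, 58.7, 32.5 and 42.9 in AF-low, and 18.7, 24.9 and 46.8 in young libraries. Among the 3 young libraries, the 2 low values belong to young 1 and 2, those with the choroid plexus transcripts. AF-high 2 and 5 were also low, at 20.2 and 28.3 TPM, with summed choroid plexus and ependyma markers of 150 and 31.6 TPM. The part of these transcripts in the Gla values was not tested. PLX5622 and young means of 48.5 ± 8.98 and 30.2 ± 14.8 TPM differed by 0.75 ± 0.34 (interval 0.040 to 1.47, adjusted p = 0.934), the largest difference of the 8 genes in the 6 comparisons. With young 1 and 2 left aside, which leaves young 3 alone in its group, the difference was 0.033. The groups overlapped in each comparison.

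Galc and Arsa degrade the galactolipids that make up much of myelin. Arsa (chromosome 15, 89472476 to 89477425, minus strand) encodes arylsulfatase A, which removes the sulfate of sulfatide and is deficient in metachromatic leukodystrophy. It was at 3.91, 5.46, 4.26 and 4.01 TPM in PLX5622 and at 3.35, 4.42 and 3.49 TPM in young libraries. In AF-high it was at 16.1, 5.22, 1.32, 13.5 and 4.31 TPM, and in AF-low at 12.6, 1.33 and 3.72 TPM. The old sorted groups thus held both the high and the low values, 12.2 times apart, whereas the PLX5622 and young libraries were close together. The pooled within-group SD of Arsa in log2(TPM + 1) was 1.21 in the AF groups and 0.177 in the PLX5622 and young groups. For all tested genes the medians were 0.404 and 0.207, and 88.7% of them had the larger SD in the AF groups, as 7 of the 8 described genes did. No difference of Arsa passed, and the widest interval, AF-low minus young, ran from -1.22 to 1.55. Sumf1, which activates sulfatases, was at 48.9 ± 5.64, 57.7 ± 11.7, 69.2 ± 23.9 and 57.7 ± 2.24 TPM in PLX5622, AF-high, AF-low and young libraries.

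Galc (chromosome 12, 98202294 to 98259459, minus strand) encodes galactosylceramidase, deficient in Krabbe disease and in the twitcher mouse. It was at 15.3, 12.4, 12.9 and 12.8 TPM in PLX5622, 12.3, 16.5, 13.9, 9.43 and 11.8 in AF-high, 18.6, 15.3 and 10.2 in AF-low, and 12.4, 13.4 and 14.9 in young libraries. The 6 log2 differences lay between -0.17 ± 0.21 (AF-high minus AF-low) and 0.077 ± 0.23 (AF-low minus young), with intervals that reached -0.61 and 0.57. Oligodendrocytes also express Galc. Of 9 oligodendrocyte markers 5 were listed, with summed levels of 56.6 to 69 TPM for PLX5622, 44.5 to 85.1 TPM for AF-high, 53.7 to 83.8 TPM for AF-low and 66.3 to 89.3 TPM for young, and Mog, Cldn11, Ugt8a and Opalin were not listed.

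Smpd1 and Asah1 act on either side of ceramide. Acid sphingomyelinase, encoded by Smpd1 and deficient in Niemann-Pick disease types A and B, releases ceramide from sphingomyelin. Smpd1 (chromosome 7, 105554360 to 105558389, plus strand) was at 14, 10.6, 15 and 14.1 TPM in PLX5622, 11.5, 13.9, 12.5, 13.7 and 11.4 in AF-high, 17.5, 13.7 and 12.6 in AF-low, and 15.1, 15.1 and 13.2 in young libraries. It varied least of the 8, with an SD of 0.171 in log2(TPM + 1) over the 15 libraries. Its 6 differences lay between -0.19 ± 0.17 (AF-high minus AF-low) and 0.077 ± 0.16 (PLX5622 minus AF-high), and no interval went beyond -0.54 or 0.41.

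Asah1 (chromosome 8, 41340197 to 41374773, minus strand) encodes acid ceramidase, deficient in Farber disease. Its levels were 167, 203, 189.9 and 179 TPM in PLX5622, 177, 211, 173, 167 and 175 in AF-high, 133, 195 and 163 in AF-low, and 193, 202 and 224 in young libraries. AF-low libraries averaged 164 ± 31.1 and young libraries 206 ± 15.9 TPM (-0.34 ± 0.15, interval -0.66 to -0.028, adjusted p = 0.374), with 195 TPM in AF-low 2 above 193 in young 1. AF-high minus young was -0.19 ± 0.13 (interval -0.48 to 0.089, adjusted p = 0.63), and PLX5622 minus young was -0.16 ± 0.14 (interval -0.45 to 0.14, adjusted p = 0.979). Scarb2, a partner gene whose product resides in the lysosomal membrane, did not pass in any comparison. Its transcript was at 109.6 ± 7.99, 117 ± 15, 107 ± 2.72 and 111 ± 6.72 TPM in PLX5622, AF-high, AF-low and young libraries.

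**Figure D3:**
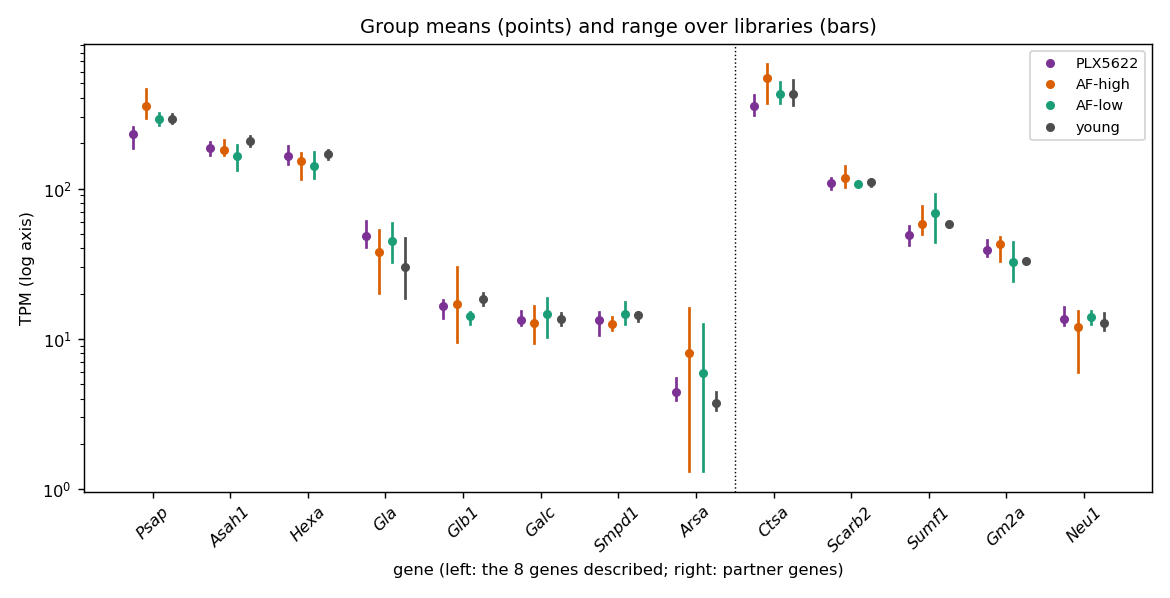
TPM on a log axis of the 8 genes (left of the dotted line) and 5 partner genes (right). Points are group means and bars run from the lowest to the highest library, for PLX5622 (n = 4), AF-high (n = 5), AF-low (n = 3) and young (n = 3). Ctsa has the highest mean shown, 545 TPM in AF-high, and the longest bars are those of Arsa in the AF groups.

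Between AF-high and AF-low microglia, which differ in gate at 1 age, none of the 8 genes was called (limma, 0 of 8), as for all genes (0%). At an unadjusted p under 0.05 there were 0 of the 8, against 8.21% of all genes, and 0 of the 8 had groups without overlap, against 2.76%. The median log2 difference of the 8 was 0.13, against -0.044 for all genes. The 12 microglial markers were all positive in this comparison, with a larger median of 0.27. The intervals were wide, reaching 1.67 for Arsa, -0.95 for Gla, 0.72 for Glb1, -0.61 for Galc, 0.58 for Psap, -0.54 for Smpd1, 0.45 for Hexa and 0.43 for Asah1 at the limit farther from 0.

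Between AF-high and young microglia 0 of the 8 were called, beside 0% of all genes, and 0 had an unadjusted p under 0.05, beside 11% of all genes. None of the 8 was free of overlap (0), against 7.78% of all genes. Their median was -0.13, against -0.081 for all genes. AF-low and young gave 0 called, beside 0.0455% of all genes. Here Asah1 alone of the 8 had an unadjusted p under 0.05, beside 11.8% of all genes, and the median was 0.0028 against -0.037. For PLX5622 the medians were 0.065 against AF-high, 0.079 against AF-low and -0.075 against young, with -0.018, -0.052 and -0.11 for all genes. At an unadjusted p under 0.05 stood 1, 1 and 2 of the 8, beside 15.3%, 14.3% and 5.23% of all genes, Psap in each and Gla in the last.

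**Figure D4:**
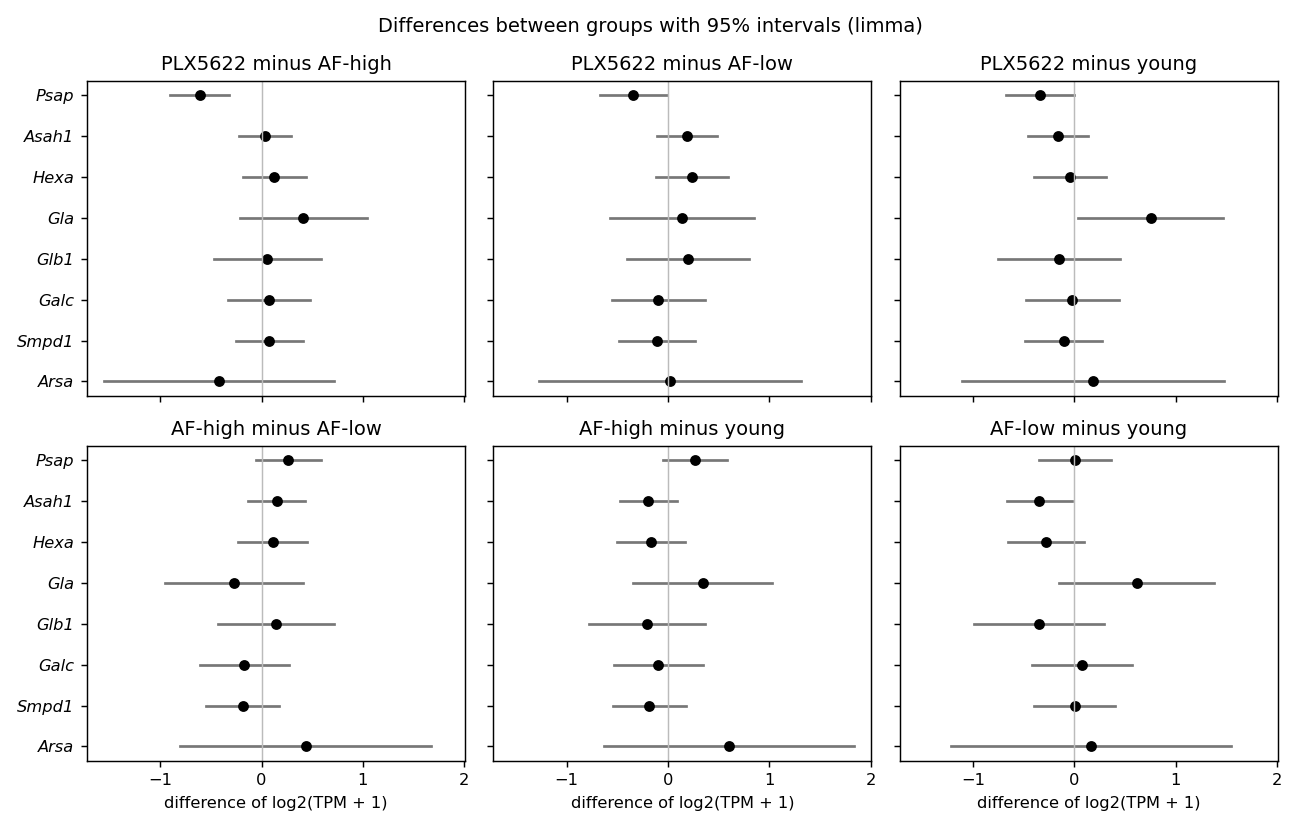
Differences of log2(TPM + 1) for the 8 genes in the 6 comparisons, the first-named group minus the second. Points are limma estimates and lines 95% intervals, not adjusted for the number of genes. Psap in PLX5622 minus AF-high, at -0.61, is the interval farthest from 0, and Arsa has the widest intervals.

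The 8 genes did not move as 1 block across libraries. In AF-high 2, Psap was the highest and Asah1 the second highest of the 15 libraries, while Hexa and Glb1 were the lowest and Gla the second lowest. AF-high 4 held the highest Glb1, the second highest Arsa and the lowest Galc. AF-low 1 held the highest Galc and Smpd1, the second highest Gla and the lowest Asah1. These libraries belong to the old sorted groups, whose libraries scatter more for most genes.

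**Figure D5:**
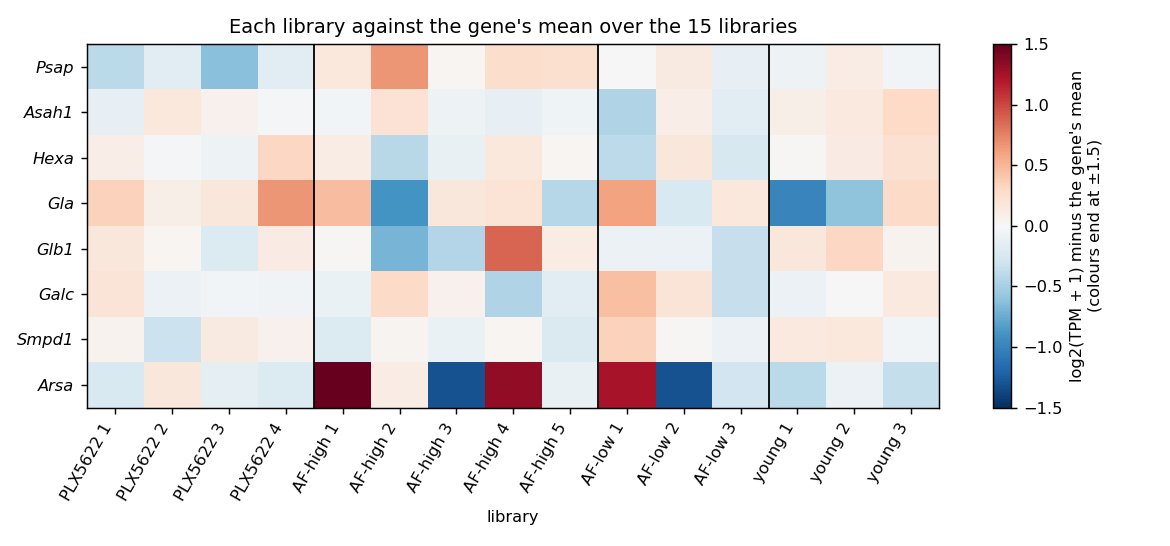
Log2(TPM + 1) of each gene minus its mean over the 15 libraries, by library, with groups parted by black lines. Red is above and blue below the mean, and colours end at 1.5 in either direction. Psap is blue in the 4 PLX5622 libraries, and AF-high 2 has red Psap and Asah1 beside blue Hexa, Gla and Glb1.

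Promoter letters were read because transcription factors of the TFEB family bind an E-box, CACGTG, with preferred flanks TCACGTGA, near many lysosomal genes. RefSeq windows from 250 bases before to 50 after a transcription start (GRCm38.p6) were at hand for 7 of the 8 genes, and Asah1 had none. CACGTG, which reads the same on both strands and is contained in TCACGTGA, occurred in windows of 3 of these 7 genes, Gla, Glb1 and Arsa, against 9.53% of the 12354 windows of tested genes and 7.15% of all 32851 windows. TCACGTGA occurred at 2 positions in the Gla window, against 1.76% of windows of tested genes with at least 1. The windows with a match follow, with Psap, the gene with the smallest adjusted p of the 8, as a window without one. Each is given 5′ to 3′ on the strand of its gene, and capitals mark CACGTG, or TCACGTGA where the longer form is present.
Gla, chrX:134600956-134601255, minus strand: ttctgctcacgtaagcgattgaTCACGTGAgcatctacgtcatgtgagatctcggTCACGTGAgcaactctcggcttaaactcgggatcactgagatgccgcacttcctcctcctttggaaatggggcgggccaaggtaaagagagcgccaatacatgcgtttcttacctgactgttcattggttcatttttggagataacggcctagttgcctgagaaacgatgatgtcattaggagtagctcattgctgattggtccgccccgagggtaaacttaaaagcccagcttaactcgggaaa
Glb1, chr9:114400828-114401127, plus strand: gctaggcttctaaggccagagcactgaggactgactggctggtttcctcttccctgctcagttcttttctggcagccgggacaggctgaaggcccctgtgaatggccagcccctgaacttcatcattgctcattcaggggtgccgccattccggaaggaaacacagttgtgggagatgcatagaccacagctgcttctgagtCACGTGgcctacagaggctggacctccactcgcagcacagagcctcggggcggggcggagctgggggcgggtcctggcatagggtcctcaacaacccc
Arsa, chr15:89477375-89477674, minus strand: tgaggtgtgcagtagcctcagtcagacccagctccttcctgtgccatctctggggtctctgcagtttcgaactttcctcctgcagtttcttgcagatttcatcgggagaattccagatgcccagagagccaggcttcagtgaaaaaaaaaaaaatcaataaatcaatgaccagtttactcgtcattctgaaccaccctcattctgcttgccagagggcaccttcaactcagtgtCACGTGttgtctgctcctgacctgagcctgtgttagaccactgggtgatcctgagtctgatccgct
Psap, chr10:60277378-60277677, plus strand: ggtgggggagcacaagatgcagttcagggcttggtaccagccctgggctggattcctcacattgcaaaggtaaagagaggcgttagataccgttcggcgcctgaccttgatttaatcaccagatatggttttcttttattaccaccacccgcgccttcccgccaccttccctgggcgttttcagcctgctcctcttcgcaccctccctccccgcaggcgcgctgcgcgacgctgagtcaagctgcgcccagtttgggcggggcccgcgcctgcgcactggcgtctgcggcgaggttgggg

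In the Gla window the matches to TCACGTGA begin at positions -228 and -195 from the RefSeq start, counted without a 0. The GENCODE gene body of Gla reaches upstream of that start, to 134601125. These annotations thus differ for Gla, and the matches to TCACGTGA lie closer to the GENCODE start. Those to CACGTG begin at -48 in Glb1 and -16 in Arsa, with letters TCACGTGG and TCACGTGT. The window of Psap shown, and its second window at another start, have 0 matches, which says only that these letters are not there. Gla, Glb1 and Arsa were also the 3 genes of the 8 with the largest SD in log2(TPM + 1) over the 15 libraries (0.516, 0.358 and 0.835, against 0.171 to 0.298 for the other 5), a pairing seen after both were computed and not tested. Arsa is the lowest of the 8 in level. The pooled within-group SD in the AF groups, against PLX5622 and young, was 1.21 and 0.177 for Arsa and 0.498 and 0.153 for Glb1. Gla was low in young 1 and 2, the libraries with choroid plexus transcripts. GAGGAAGT, a motif of the macrophage factor PU.1, occurred at -148 in the Gla window, on the strand opposite to the gene (acttcctc in the letters shown), and in 3.17% of windows of tested genes. CCAAT occurred on either strand in the windows of Smpd1, Hexa and Gla and in 37.7% of those of tested genes.

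Genes around the pathway were read from lists. Of 21 other genes of sphingolipid breakdown 16 were tested, of 40 genes of synthesis and transfer 28, of 22 other lysosomal glycosidases and sulfatases 21, of 15 sorting genes 15, and of 16 genes of the TFEB family and its regulators 14. None of these genes, nor of the partner genes Gm2a, Ctsa, Neu1, Scarb2 and Sumf1, was called in any of the 6 comparisons (limma, 0), and 0 to 5 genes of a list had an unadjusted p under 0.05. Between PLX5622 and AF-high, 3 of 16 other breakdown genes had an unadjusted p under 0.05, 6 being positive and 10 negative with a median of -0.12. In the same comparison, 4 of 28 synthesis genes had an unadjusted p under 0.05, 7 being positive and 21 negative with a median of -0.18, and 4 of 21 glycosidases and sulfatases did, with a median of -0.028. The sorting genes had 2 of 15, with 3 positive, 12 negative and a median of -0.16, and the TFEB list 1 of 14 with a median of -0.037, beside 15.3% and a median of -0.018 for all genes. Between AF-high and AF-low, 14 of 21 other glycosidases and sulfatases were positive with a median of 0.14, and between AF-high and young 10 of 21 with a median of -0.082. AF-low against young had 5 positive and 16 negative with a median of -0.20. PLX5622 against young had 4 positive and 17 negative with a median of -0.17. The medians of all genes were -0.044, -0.081, -0.037 and -0.11 in these comparisons, in the order given.

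Patterns most like those of the 8 genes were sought by the root mean square difference of centred log2(TPM + 1) over the 15 libraries, among 9136 genes with a mean of at least 5 TPM. For Psap these were Kmt2a (0.105), Rtn4rl1 (0.112) and Tpcn1 (0.131), beside an SD of 0.298 for Psap itself. Hexa was most like Ctss, the gene of the protease cathepsin S (0.102, SD of Hexa 0.215). For Gla the nearest was Rgs1 (0.338, SD 0.516) and for Arsa Hmgb1-ps5 (0.423, SD 0.835), which are loose matches. The measure favours genes of small spread and is given as a description.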

How the data were processed

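RNA of FACS-sorted microglia was sequenced in 15 libraries. Per the labels' protocols, RNA was amplified with the Ovation system before low-input library preparation. The deposited TPM values come, per the submitters' processing notes, from Salmon 1.0.0 with FastQC 0.11.8 on GRCm38 (mm10). How the authors filtered the table was not given in the sources used here. It holds 0 zero values, so genes silent in any library are not covered. Dates stood in place of 19 symbols, which name no gene. The unit matched the planned test.

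Columns were matched by the labels' description. Log2(TPM + 1) of the 13175 genes with at least 1 TPM in at least 3 libraries entered 1 limma 3.58.1 model (R 4.3.3; 4 group means, eBayes with trend, 11 residual and 4.151 prior degrees of freedom), two-sided, with Benjamini-Hochberg adjustment over all genes in each of 6 comparisons. Fold changes on this scale understate those of low genes. The titles number biological replicates without naming animals, so p-values measure only the spread among libraries, and AF-high and AF-low may share mice. The fit was tested on data simulated with 1 SD per gene in all groups. That test does not cover the larger scatter of the AF groups. The 8 genes and all lists were chosen with earlier results of these data known, and no list was tested. Named genes are the 8, their partners (some are not reported here), list genes that were called, and the nearest in pattern. Descriptions used Python 3.11.15.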

Additional observations from a re-analysis of the deposited data

Results flagged for a closer look

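In 2 of 16 sets of libraries tested (8 genes in the AF-high and PLX5622 groups), 1 library stood apart from the rest of its group by Dixon's criterion, which chance meets in about 1 of 20 groups. Asah1 was at 211 TPM in AF-high 2, a gap of 0.777 of the group's range above the next library, where 0.71 is the critical value. Galc was at 15.3 TPM in PLX5622 1, a gap of 0.835 of the range where 0.829 is critical. The cause was not tested.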

How the results depend on the processing

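No change of the 8 genes other than that of Psap between PLX5622 and AF-high was called in any of 1175 recomputed values (0, smallest adjusted p = 0.0723, limma). Of the 8 genes, the count called between PLX5622 and AF-high became 1 (Psap) with a filter at 5 TPM and with array weights. It was also 1 with the libraries AF-high 2 and 3 and AF-low 1 removed, and without AF-high 3. Over single libraries left out it was 0 to 1. With the replicate block, Psap in this comparison had -0.62 (adjusted p = 0.093). Same-numbered libraries correlated at -0.0812 to 0.141 in 19 pairs, 6 of them best with their own number, so the numbers do not show a pairing. Over all genes, the 83 calls between PLX5622 and AF-high became 0 with the block, 441 with array weights, and 1 to 205 without 1 library. For AF-low against young 6 calls became 0 to 44 (0 to 182 without 1 library), for PLX5622 against AF-low 19 became 0 to 89 (2 to 398), for PLX5622 against young 12 became 0 to 420 (1 to 52), for AF-high against young 0 became up to 129 (56), and for AF-high against AF-low 0 became up to 1 without 1 library.

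Of 1200 recomputed values 59 changed sign, called in neither fit, and the causes were not tested. Quantile normalization gave Psap -0.13 (AF-low against young) and Hexa 0.037, Galc 0.11 and Smpd1 0.015 (PLX5622 against young). Rescaling without mitochondrial, ribosomal and numbered gene models gave Smpd1 -0.042 and Psap -0.043 (AF-low against young), Galc 0.044 and Smpd1 0.031 (PLX5622 against AF-low), and Hexa 0.058 and Galc 0.078 (PLX5622 against young). Array weights gave Galc -0.078, Smpd1 -0.058 and Psap -0.053 (AF-low against young), Glb1 -0.082 (PLX5622 against AF-high) and Galc 0.045 (PLX5622 against AF-low). The replicate block gave Glb1 -0.060 (AF-high against AF-low), Galc 0.0034 (AF-high against young), Arsa -0.11 (PLX5622 against AF-low) and Galc 0.058 (PLX5622 against young). With young 1 and 2 left aside, Gla was -0.38 (AF-high against young), Galc -0.052 and Gla -0.11 (AF-low against young), and Smpd1 0.019 (PLX5622 against young). Removing those 3 libraries together, Gla was 0.12 and Asah1 -0.048 (AF-high against AF-low), Glb1 0.16 (AF-high against young), Galc -0.10, Arsa -0.51 and Smpd1 -0.13 (AF-low against young), Hexa -0.018 and Glb1 -0.31 (PLX5622 against AF-high), and Galc 0.081 and Smpd1 0.021 (PLX5622 against AF-low).

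Leaving out 1 library took 18 of 48 differences across 0, with the ranges below. Between AF-high and AF-low they were Hexa -0.011 to 0.27, Galc -0.39 to 0.0059, Glb1 -0.078 to 0.31 and Arsa -0.16 to 1.11. AF-high against young had Galc -0.18 to 0.0018. AF-low against young had Galc -0.10 to 0.30, Arsa -0.51 to 0.76, Smpd1 -0.13 to 0.093 and Psap -0.061 to 0.067. PLX5622 against AF-high had Galc -0.020 to 0.17, Glb1 -0.11 to 0.28 and Asah1 -0.012 to 0.092. PLX5622 against AF-low had Galc -0.32 to 0.081, Gla -0.064 to 0.35, Arsa -0.58 to 0.70 and Smpd1 -0.20 to 0.021. PLX5622 against young had Hexa -0.12 to 0.011 and Galc -0.081 to 0.046. The other 30 kept their sign, and 24 of these moved by over 1.5 times, among them Glb1 (AF-high against young) at -0.43 to -0.037, Asah1 and Hexa (AF-low against young) at -0.48 to -0.20 and -0.44 to -0.16, and Gla (PLX5622 against young) at 0.48 to 1.11. Where 1 library of a group remained, it was taken to vary like the other groups. The unknown read depth limits what the low genes, Arsa above all, can show.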
